A study of Mus musculus with 24 samples.

Results

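R-spondins are secreted proteins that raise the response of a cell to Wnt ligands, and the 9 genes described here are the 4 R-spondins of the mouse (Rspo1, Rspo2, Rspo3 and Rspo4), their receptors Lgr4, Lgr5 and Lgr6, and the transmembrane ubiquitin ligases Znrf3 and Rnf43. They are 9 of the 19351 genes measured by a probe set assigned to a single gene, with the brightest probe set standing for each gene, and all 9 were found. The set was chosen by a measured value, the mean log2 value of Rspo3 at the 3 stages, which was highest at E12.5, so the stage values of Rspo3 are given as a description, without a test, and the other 8 genes were tested.

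The arrays profiled developing diaphragm that had been cut out of sections of C57BL/6J mouse embryos by laser capture microdissection. There were 8 arrays at E11.5 and 8 at E12.5 of the pleuroperitoneal folds, the paired mesenchymal ridges that muscle precursors enter to form the diaphragm, and 8 at E16.5 of the muscularised diaphragm. No group carried an engineered allele or a treatment in the labels, and tissue was taken in transverse sections at the first 2 stages and in sagittal sections at E16.5. Stage and plane of section thus cannot be told apart in the comparisons with E16.5. The labels do not say that arrays came from separate embryos or litters, so a p-value here measures the spread between these arrays, which may be partly technical.

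As background, Znrf3 and Rnf43 tag Frizzled receptors for removal from the cell surface. An R-spondin that binds an Lgr receptor and one of these ligases takes the ligase off the membrane, so that more Frizzled stays and beta-catenin signalling rises. In the mouse, Rspo2 is required for limb and lung growth, Rspo3 for placental and vascular development and Rspo1 for ovary differentiation, and RSPO4 is mutated in people born without nails.

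The dissected tissue was a mixture, and fewer cells of a type cannot be told apart from less RNA per cell in such samples. The mean over 10 skeletal muscle markers on the log2 scale lay between 8.20 and 9.38 in the E11.5 arrays. It lay between 8.41 and 11.2 in the E12.5 arrays, and between 11.8 and 12.3 in the E16.5 arrays. The mean over 9 hepatocyte markers lay between 6.92 and 7.34 at E11.5. At that stage Alb, Afp, Fgb and Ahsg each lay below the lower quartile of genes in over 4 of the 8 arrays. For the hepatocyte mean the E12.5 arrays spanned 8.08 to 12.2, and the E16.5 arrays 10.1 to 12.2. The mean over 10 markers of fold mesenchyme and muscle connective tissue ran from 9.30 to 9.59, from 9.09 to 9.67 and from 8.94 to 9.11 at the 3 stages in turn. The E16.5 arrays fell into 2 sets on the first principal component, which held 48.3% of the variance, with replicates 1 to 4 between 58.9 and 63.9 and replicates 5 to 8 between 39.1 and 50.5. The part of these cell types in the results was not tested.

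Among the ligands, Rspo3 had the widest stage pattern. Its log2 values at E11.5 ran from 6.56 through a median of 7.51 to 8.82. At E12.5 they ran from 8.19 through 9.28 to 9.99, and at E16.5 from 8.25 through 8.48 to 8.59. Of the 8 E12.5 arrays, 7 lay above every E11.5 array, and the exception was replicate 2. All 8 E16.5 arrays lay inside the ranges of both E11.5 and E12.5. Rspo3 averaged 7.67 ± 0.66 in E11.5 folds, 9.25 ± 0.58 in E12.5 folds and 8.43 ± 0.12 in E16.5 diaphragm (SD, n = 8 each). Rspo3 was thus 1.58 log2 units (2.99-fold) higher at E12.5 than at E11.5, lower at E16.5 than at E12.5 with a difference of -0.82 (1.76-fold), and 0.76 log2 units (1.70-fold) higher at E16.5 than at E11.5.

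The E12.5 array with the lowest Rspo3 value, replicate 2 at 8.19, also had the highest hepatocyte marker mean of its stage (12.2), the lowest muscle mean (8.41) and the lowest fold mesenchyme mean (9.09). Without that array the Rspo3 difference between E12.5 and E11.5 was 1.73, and without replicates 2 and 3 together it was 1.70. Replicate 3, which had the highest muscle mean at E12.5 (11.2), had an Rspo3 value of 9.60. The part of the cell mixture in the Rspo3 pattern was not tested.

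**Figure D1:**
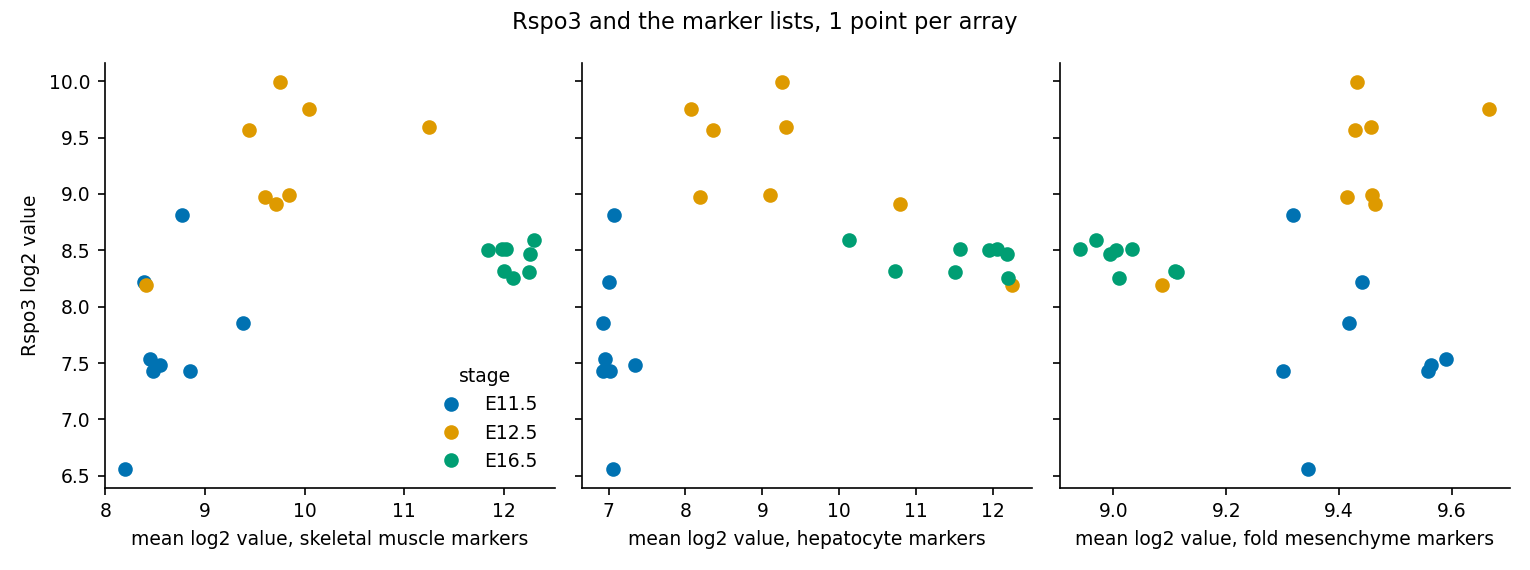
Rspo3 log2 value of each array (vertical axis) against the array's mean log2 value over skeletal muscle, hepatocyte and fold mesenchyme markers (horizontal axes), with 1 point per array coloured by stage (8 arrays each). The E12.5 point at 8.19 stands apart from the other 7 of its stage in all 3 panels, and the E16.5 points sit between 8.25 and 8.59 at the highest muscle means.

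Rspo2 was lowest at E16.5. Its log2 values at E11.5 ran from 7.20 through a median of 7.86 to 9.23, at E12.5 from 6.86 through 7.64 to 8.20, and at E16.5 from 6.60 through 6.84 to 6.97. Every E16.5 array lay below every E11.5 array, and 4 of the 8 lay below every E12.5 array. The E16.5 values were close to the lower quartile of genes (6.40 to 6.64 over arrays), with 0 of the 8 arrays below their own. Rspo2 fell in the E16.5 diaphragm (6.81 ± 0.12) against the E11.5 folds (7.95 ± 0.64; SD, n = 8 each) by a difference of -1.14 ± 0.20 (SE; 2.20-fold, limma adjusted p = 9.14e-05). It also fell at E16.5 against E12.5 (7.60 ± 0.37), by -0.79 ± 0.20 (1.73-fold, limma adjusted p = 0.00447). The second call did not hold with E16.5 replicates 1 to 4 left out, where Rspo2 differed by -0.73 with limma adjusted p = 0.0660. At E16.5 against E11.5 the Rspo2 difference was -1.09 without that set (adjusted p = 0.00544) and -1.19 without replicates 5 to 8 (adjusted p = 0.00187). The difference between E12.5 and E11.5 was -0.35 ± 0.20 and did not pass (limma adjusted p = 0.428).

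At E12.5 the highest Rspo2 value, 8.20, was in replicate 2, the array lowest for Rspo3, and the lowest, 6.86, was in replicate 3. The SDs of Rspo2 and Rspo3 at E11.5 were 0.64 and 0.66, against a median SD of 0.215 over all genes. At E12.5 they were 0.37 and 0.58 against 0.175, and at E16.5 they were 0.12 and 0.12 against 0.193. Both thus spread more than the median gene at E11.5 and E12.5 and less at E16.5, as a description.

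Rspo1 differed less. Its log2 values at E11.5 ran from 8.31 through a median of 8.53 to 9.03, at E12.5 from 7.93 through 8.30 to 8.57, and at E16.5 from 7.91 through 8.30 to 8.43. The ranges overlapped at all 3 stages, and 5 of the 8 E16.5 arrays lay below every E11.5 array. Rspo1 fell at E16.5 (8.24 ± 0.17) against E11.5 (8.55 ± 0.22; SD, n = 8 each) by -0.31 ± 0.10 (SE; 1.24-fold, limma adjusted p = 0.0191). With E16.5 replicates 1 to 4 left out the adjusted p was 0.103, and with replicates 5 to 8 left out it was 0.0621, while the Rspo1 difference stayed at -0.31 and -0.32. The difference between E12.5 and E11.5 was -0.29 ± 0.10 (limma adjusted p = 0.207), and that between E16.5 and E12.5 was -0.02 ± 0.10 (adjusted p = 0.912).

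Rspo1 is the only member with a passed test that had a promoter entry in the RefSeq table (build GRCm38.p6), so its promoter is printed. The window, chr4:124986180-124986479 on the plus strand, holds 250 bases before and 50 after the annotated start, and capitals mark CpG dinucleotides.
Rspo1 promoter: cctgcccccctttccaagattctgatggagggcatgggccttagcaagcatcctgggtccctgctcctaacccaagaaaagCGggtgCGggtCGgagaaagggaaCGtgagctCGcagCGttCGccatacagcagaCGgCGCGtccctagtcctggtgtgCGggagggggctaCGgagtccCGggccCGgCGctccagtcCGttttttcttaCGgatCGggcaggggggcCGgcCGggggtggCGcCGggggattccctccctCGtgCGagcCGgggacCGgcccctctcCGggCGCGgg
The Rspo1 window held 29 CpG dinucleotides against a median of 7 over 32851 mouse promoters, with 69.0% G and C against a median of 52.7%. The motif CTTTGA, the core of sites for the TCF/LEF factors that act with beta-catenin, was searched on both strands (as TCAAAG on the other). It was in 0 of the promoters found for 5 members (Rspo1, Rspo4, Lgr4, Lgr6 and Rnf43) and in 16.0% of all promoters. A missing match says only that these letters are not in the window.

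Rspo4 was dim. Its mean log2 values were 6.65 ± 0.19 in E11.5 folds, 6.51 ± 0.14 in E12.5 folds and 6.47 ± 0.10 in E16.5 diaphragm (SD, n = 8 each), and 4, 3 and 6 of the 8 arrays lay below their own lower quartile of genes. By the rule that over 4 such arrays mark background, Rspo4 was not told from background at E16.5. Its E16.5 to E11.5 difference of -0.18 ± 0.08 did not pass (limma adjusted p = 0.0756).

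**Figure D2:**
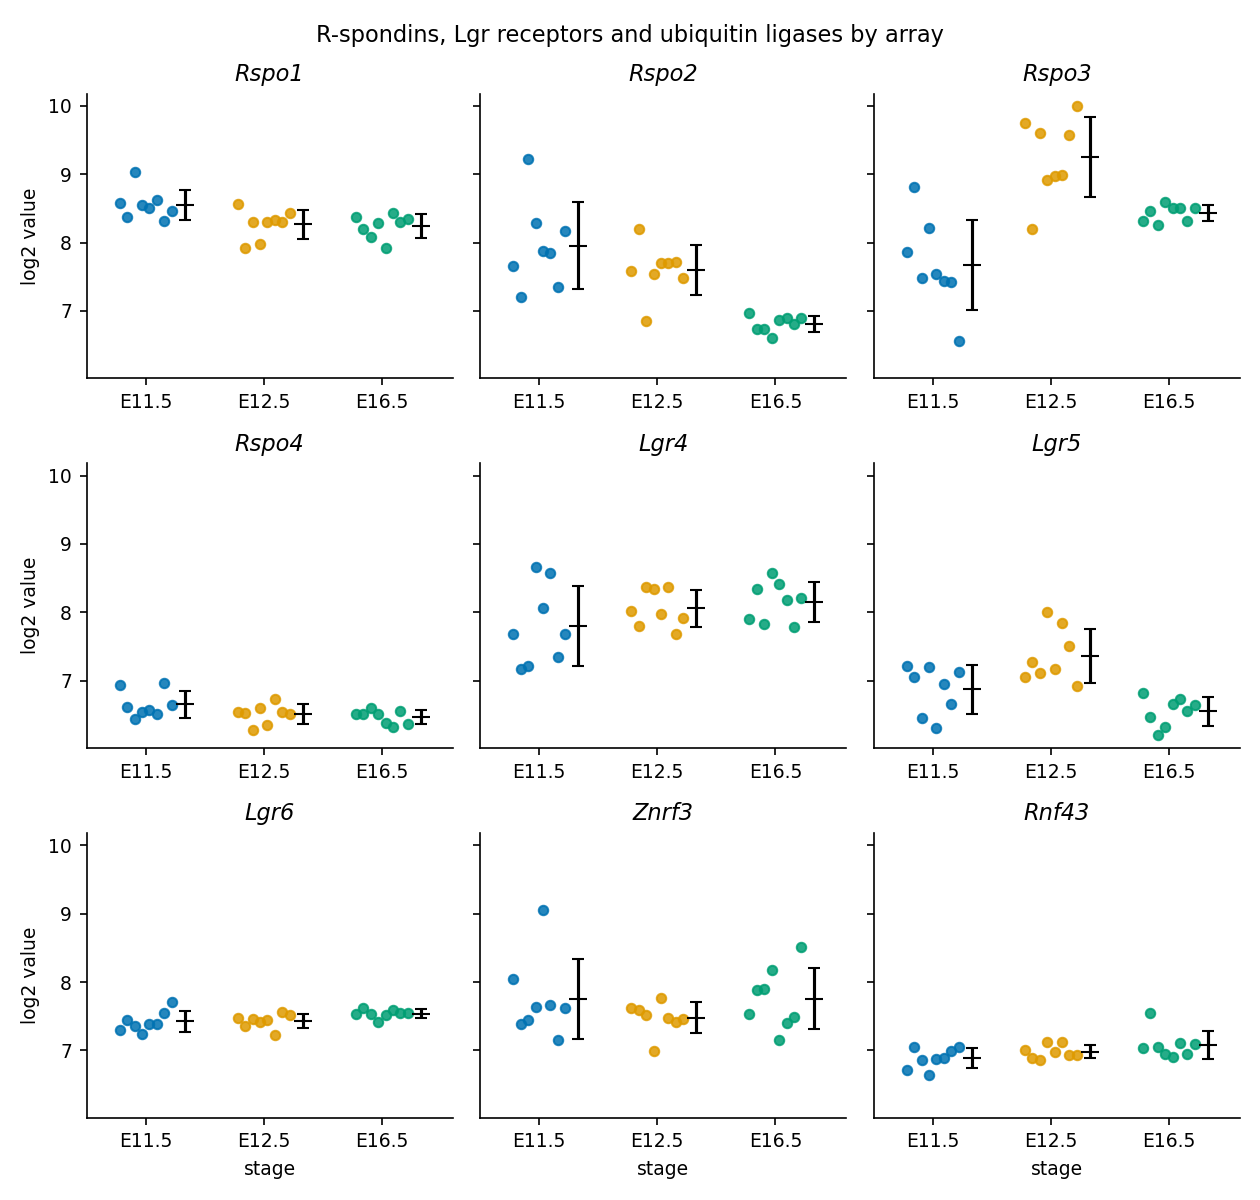
Log2 value of each of the 9 genes in each array (vertical axis) at E11.5, E12.5 and E16.5 (horizontal axis), with 1 point per array and the mean ± SD of 8 arrays beside it. Rspo3 points are highest at E12.5 (8.19 to 9.99), Rspo2 points are lowest at E16.5 (6.60 to 6.97), and levels are not comparable between genes because each has its own probe set.

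Of the receptors, Lgr5 was the one that fell. Lgr5, known as a marker of stem cells in the intestine, had log2 values at E11.5 from 6.31 through a median of 7.01 to 7.22, at E12.5 from 6.92 through 7.22 to 8.01, and at E16.5 from 6.20 through 6.60 to 6.82. No E16.5 array reached the lowest E12.5 array. Lgr5 fell at E16.5 (6.55 ± 0.21) against E12.5 (7.36 ± 0.39; SD, n = 8 each) by -0.81 ± 0.16 (SE; 1.75-fold, limma adjusted p = 0.000262). In 4 of the 8 E16.5 arrays and 2 of the 8 E11.5 arrays it lay below the lower quartile of genes, so those values lie near background. Lgr5 also passed without E16.5 replicates 1 to 4 (-0.71, adjusted p = 0.0131) and without replicates 5 to 8 (-0.91, adjusted p = 0.00195). The Lgr5 difference between E12.5 and E11.5 was 0.49 ± 0.16, with 4 E12.5 arrays above every E11.5 array, and did not pass (limma adjusted p = 0.173). The E16.5 to E11.5 difference was -0.32 ± 0.16 (adjusted p = 0.118), and passed with E11.5 replicate 5 left out (adjusted p = 0.0466).

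Lgr4, which is the broadly expressed receptor of the 3, averaged 7.80 ± 0.58 in E11.5 folds, 8.06 ± 0.27 in E12.5 folds and 8.16 ± 0.29 in E16.5 diaphragm (SD, n = 8 each). Its ranges overlapped at every stage, and its largest difference, 0.35 ± 0.19 at E16.5 against E11.5, did not pass (limma adjusted p = 0.164). Without E11.5 replicate 4 the Lgr4 adjusted p was 0.0397. Lgr6, a marker of skin stem cells, averaged 7.42 ± 0.15, 7.43 ± 0.10 and 7.54 ± 0.06 at the 3 stages in turn. Its largest difference, 0.11 ± 0.06 at E16.5 against E11.5, did not pass either (limma adjusted p = 0.172), and without E11.5 replicate 8 its adjusted p was 0.0431.

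The ligases gave no called difference. Znrf3 averaged 7.75 ± 0.59 in E11.5 folds, 7.48 ± 0.22 in E12.5 folds and 7.76 ± 0.45 in E16.5 diaphragm (SD, n = 8 each), and single arrays spanned 7.15 to 9.05, 6.999 to 7.76 and 7.16 to 8.51. Its largest difference was 0.28 ± 0.21 at E16.5 against E12.5 (limma adjusted p = 0.387). Rnf43 averaged 6.89 ± 0.15, 6.98 ± 0.10 and 7.08 ± 0.21. Its E16.5 to E11.5 difference of 0.19 ± 0.08 had a limma adjusted p of 0.0663, which was 0.0484 without E11.5 replicate 2, 0.0479 without E11.5 replicate 8 and 0.0470 without E16.5 replicate 5.

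Counted over the 8 tested members, 0 passed between E12.5 and E11.5 in limma, where 0.388% of all genes did. At an unadjusted p under 0.05, 2 of the 8 did (Lgr5 and Rspo1), against 14.4% of all genes, and the count at the adjusted threshold was 0 in every alternative run. Between E16.5 and E12.5, 2 of 8 fell (Rspo2 and Lgr5) and 0 rose, against 27.1% of genes called in either direction and 15.6% lower. Between E16.5 and E11.5, 2 of 8 fell (Rspo1 and Rspo2) and 0 rose, against 33.5% in either direction and 19.6% lower. The members' shares in either direction lie near the background, and the 3 comparisons share arrays. At E16.5 against E12.5, 8 of 10 muscle markers rose and 1 fell, 9 of 9 hepatocyte markers and 7 of 10 endothelial markers rose, and 3 of 10 fold mesenchyme markers rose and 5 fell. Of 7 red blood cell markers, 3 fell and 0 rose, and the array means over the 7, of 7.65 to 8.98 at E16.5 and 9.86 to 10.99 at E12.5, did not overlap. The other 4 did not pass and the median difference of the 7 was -0.14, so the list did not shift as a whole. Of 7 cardiomyocyte markers, 3 rose and 0 fell. The part of these marker lists in the falls of Rspo2 and Lgr5 was not tested. The median difference of the 8 was -0.07, 0.04 and -0.09 in the 3 comparisons, against -0.03, -0.02 and -0.08 over all genes.

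**Figure D3:**
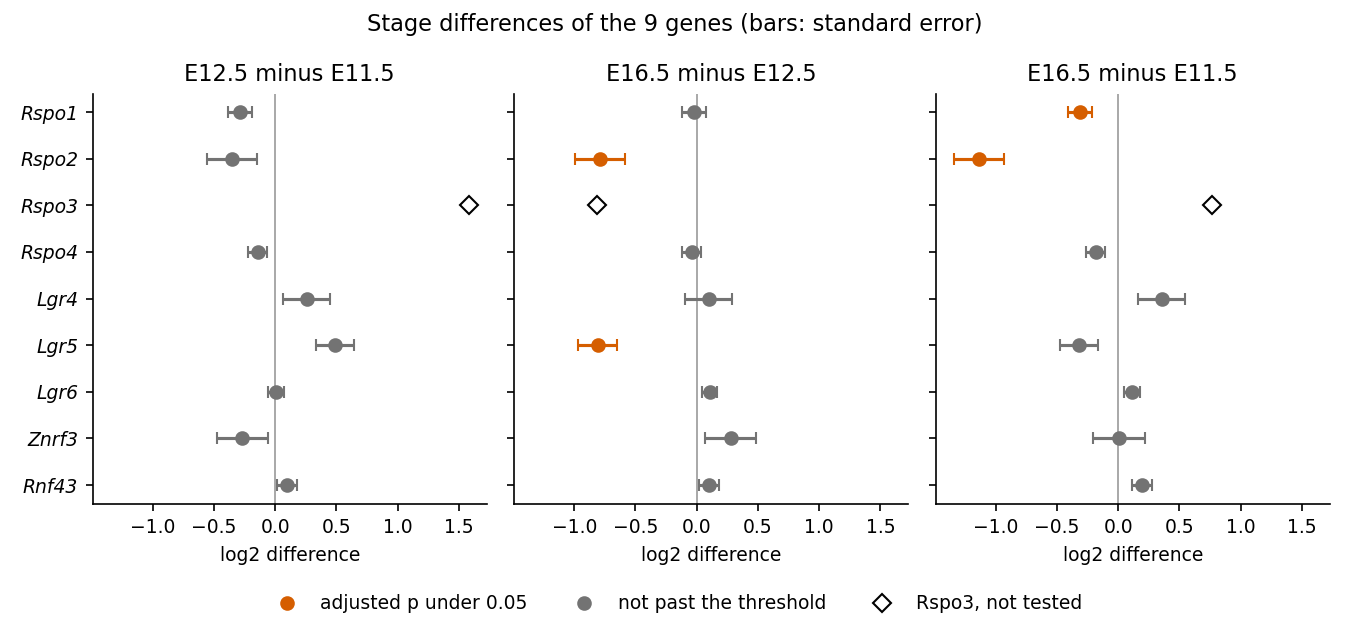
Log2 difference of each gene (horizontal axis, bars are ± 1 standard error) in the 3 stage comparisons, coloured where the limma adjusted p was under 0.05. Rspo2 and Lgr5 lie left of 0 in E16.5 minus E12.5 at -0.79 and -0.81, Rspo1 and Rspo2 in E16.5 minus E11.5, and Rspo3 is drawn as an open diamond without a bar because it was not tested.

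The genes whose log2 values followed those of Rspo3 most closely over the 24 arrays were Vstm4 (Pearson r = 0.75), Col5a2 (0.74), Myl6 (0.73), Myod1 (0.71) and Col12a1 (0.71), among 13698 genes searched. Vstm4 averaged 8.05 ± 0.25 in E11.5 folds, 8.65 ± 0.39 in E12.5 folds and 8.46 ± 0.28 in E16.5 diaphragm. Myod1, the muscle determination factor, averaged 8.65 ± 0.37, 9.39 ± 0.38 and 8.87 ± 0.22. With each stage mean subtracted, the closest were Pafah1b3 (0.78), Col12a1 (0.78), Sox4 (0.76), Rhobtb3 (0.74) and Lrrc17 (0.72), so Col12a1 was in both groups. These values are descriptions, since the arrays differ in stage and in tissue composition, and the part of these in the correlations was not tested. For Rspo2 the closest genes were Ppdpf (0.86), Brwd3 (0.85) and Hsph1 (0.85), and for Rspo1 they were Ephb6 (0.72), Odf2l (0.72) and Slc5a3 (0.70). For Lgr4 they were Fam114a2 (0.71), Oxsr1 (0.69) and Ier3ip1 (0.68), and for Znrf3 Pnma1 (0.68), Ndrg3 (0.67) and Acadsb (0.66). The Znrf3 values rest in part on E11.5 replicate 5, its highest array. Without that array r was 0.34 for Pnma1, 0.42 for Ndrg3 and 0.48 for Acadsb. The Rspo1 values rest in part on E11.5 replicate 3, the highest Rspo1 array. Without replicate 3 r was 0.54 for Ephb6, 0.63 for Odf2l and 0.58 for Slc5a3.

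Other genes of the pathway were counted from lists of Wnt signalling genes, beside the shares of all genes called in the same comparisons. In the receptor complex that Znrf3 and Rnf43 act on (Frizzled receptors, Lrp5, Lrp6 and the Dvl adaptors), 0 of 15 passed between E12.5 and E11.5 (0.388% of all genes). At E16.5 against E12.5, 8 fell and 3 rose, where 27.1% of all genes were called and 15.6% were lower. Fzd3 was 7.41 ± 0.55 at E16.5 and 9.27 ± 0.30 at E12.5 (SD, n = 8 each), a difference of -1.87 (limma adjusted p = 5.90e-08), and the Frizzled receptors Fzd2 and Fzd1 differed by -1.21 and -0.85. Dvl3 differed by -0.61. At E16.5 against E11.5, 7 fell and 1 rose (33.5% of all genes called, 19.6% lower), with Fzd3 at -2.22, Fzd2 at -1.42, Fzd1 at -0.75 and Fzd7 at -0.66. The median of the 15 was -0.26 at E16.5 against E12.5 and -0.15 at E16.5 against E11.5, where the medians of all genes were -0.02 and -0.08.

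Of 7 other cell surface partners of R-spondins, mostly glypicans and syndecans, 2 rose and 3 fell at E16.5 against E12.5, with the same numbers at E16.5 against E11.5 and 0 at E12.5 against E11.5. Of all genes, 27.1%, 33.5% and 0.388% were called in these comparisons in turn. The medians of the 7 were 0.03 and 0.04 at E16.5 against E12.5 and E11.5, where those of all genes were -0.02 and -0.08. Gpc4 was 9.61 ± 0.35 at E16.5 and 7.75 ± 0.27 at E12.5 (SD, n = 8 each), a difference of 1.86 (limma adjusted p = 1.74e-08). Gpc3, the glypican mutated in Simpson-Golabi-Behmel syndrome, was 10.64 ± 0.19 at E16.5 and 11.95 ± 0.18 at E12.5, a difference of -1.32. The syndecans Sdc1 and Sdc4 differed by -0.61 and 0.30. The Sdc4 call was at an adjusted p of 0.0502 without E16.5 replicates 1 to 4.

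Of 11 genes of the beta-catenin core, 0 passed between E12.5 and E11.5, 9 fell and 0 rose at E16.5 against E12.5, and 8 fell and 0 rose at E16.5 against E11.5. Of all genes, 15.6% were lower in the E16.5 to E12.5 comparison and 19.6% in the E16.5 to E11.5 comparison, and 0.388% were called between E12.5 and E11.5. The medians at E16.5 were -0.42 and -0.55, against -0.02 and -0.08 over all genes. Bcl9, a beta-catenin cofactor, was 9.26 ± 0.39 at E16.5 and 10.7 ± 0.30 at E12.5, a difference of -1.45. Tcf7l1, Tcf7l2 and Ctnnb1, the last encoding beta-catenin itself, differed by -0.78, -0.65 and -0.61. The 9 that fell at E16.5 against E12.5 also included Apc, Axin1 and Gsk3b, of the complex that degrades beta-catenin, at -0.37, -0.46 and -0.37. The list holds genes that act for and against beta-catenin, so the count gives no direction of signalling. The fold mesenchyme markers, of which 5 of 10 fell and 3 rose, and the muscle markers, of which 8 of 10 rose and 1 fell, moved in the same comparison, and their part in the result was not tested.

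Of 14 measured targets and feedback genes of beta-catenin, Myc was the only one past the threshold between E12.5 and E11.5, where 0.388% of all genes passed. Myc was 9.99 ± 0.19 at E12.5 and 9.37 ± 0.19 at E11.5 (SD, n = 8 each), a difference of 0.62 (limma adjusted p = 0.0285), and did not pass with any 1 of E11.5 replicate 5 and E12.5 replicates 1, 3 and 4 left out (adjusted p up to 0.0599). At E16.5 against E12.5, 2 rose and 5 fell (27.1% of all genes called, 15.6% lower), with Myc at -1.18, the BMP pseudoreceptor Bambi at -0.71, the cell cycle gene Ccnd1 at -0.56 and the feedback inhibitor Axin2 at 0.63. Axin2 did not pass without E16.5 replicates 1 to 4 (adjusted p = 0.0727), nor Ccnd1 without replicates 5 to 8 (adjusted p = 0.138). At E16.5 against E11.5, 2 rose and 4 fell (33.5% of all genes called, 19.6% lower). The medians of the 14 were -0.10 and -0.06 in the E16.5 to E12.5 and E16.5 to E11.5 comparisons, against -0.02 and -0.08 over all genes.

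Of the 19 Wnt ligands, 0 passed between E12.5 and E11.5, 2 fell at E16.5 against E12.5 and 5 fell at E16.5 against E11.5, and 0 rose in any comparison. The shares of all genes called lower were 15.6% and 19.6% in the 2 comparisons with E16.5, so these counts lie near those shares. By the rule used for Rspo4, the ligands Wnt1, Wnt3 and Wnt8b were not told from background at any stage. Wnt7a and Wnt8a were not told from background at E12.5 and E16.5. Wnt8a was among the 5 that fell at E16.5 against E11.5 (-0.18, limma adjusted p = 0.0373). The medians of the 19 were -0.03 and -0.14, against -0.02 and -0.08. Wnt5a averaged 7.95 ± 0.54 in E11.5 folds, 7.30 ± 0.33 in E12.5 folds and 6.81 ± 0.19 in E16.5 diaphragm (SD, n = 8 each). Its difference at E16.5 against E11.5 was -1.14 (limma adjusted p = 1.95e-05). The Wnt5a difference at E16.5 against E12.5 was -0.49 (adjusted p = 0.0436), and that call was lost in 11 of the 24 fits that left out a single array (adjusted p up to 0.0907). The Wnt5a call was also lost without E16.5 replicates 1 to 4 (-0.57, adjusted p = 0.116), without replicates 5 to 8 (-0.42, adjusted p = 0.220), without E12.5 replicates 2 and 3 together (adjusted p = 0.139), with the replicate number as a block (0.0803) and with arrays centred on the median (0.0507) or the 75th percentile (0.0545). Wnt11 differed by -0.22 at E16.5 against E12.5 (adjusted p = 0.0259) and did not pass in 4 of the single-array fits (up to 0.0646). The Wnt11 call was also lost without E16.5 replicates 1 to 4 (-0.26, adjusted p = 0.0548), without replicates 5 to 8 (-0.18, adjusted p = 0.161) and with arrays centred on the 75th percentile (-0.17, adjusted p = 0.144).

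**Figure D4:**
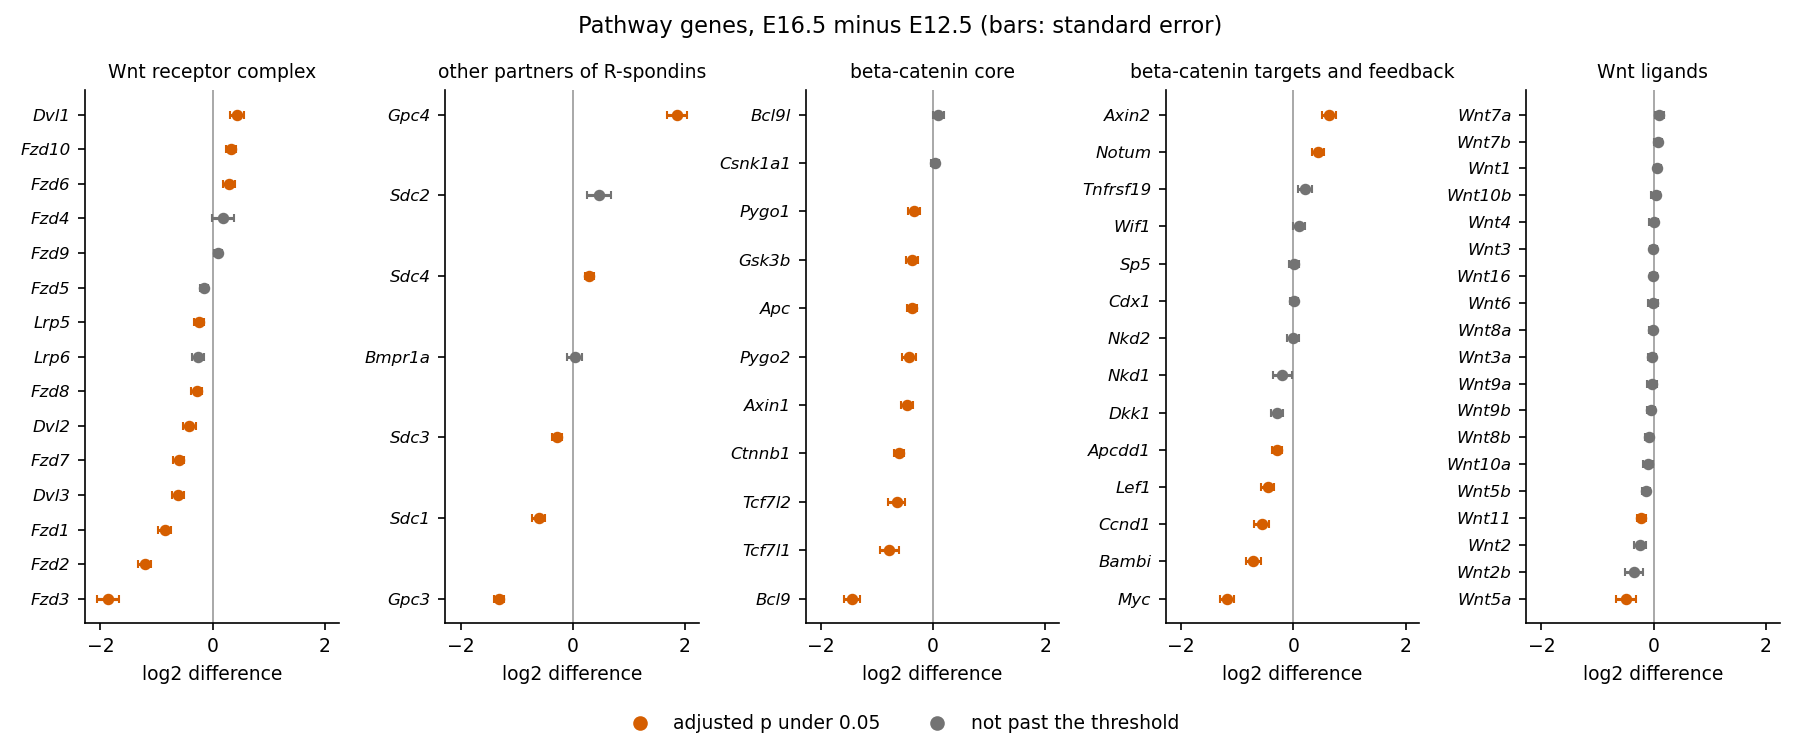
Log2 difference (horizontal axis, bars are ± 1 standard error) of each gene of the 5 Wnt pathway lists between E16.5 and E12.5, coloured where the limma adjusted p was under 0.05. The beta-catenin core has 9 of 11 genes past the threshold, all left of 0, while Fzd3 at -1.87 and Gpc4 at 1.86 are the widest points of their lists.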

How the data were processed

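Biotinylated cDNA from laser-captured tissue was prepared by amplification and read on Affymetrix Mouse Gene ST arrays, per the labels' protocols. The authors deposited 1 table of log2 values for 24200 probe sets and 24 arrays. The submitters' processing notes name Affymetrix Expression Console 1.1, R 2.9.2 and RMA, without their roles. The log2 scale was read from the values, which run from 2.56 to 14.1 with array medians over genes of 7.45 to 7.57. Read depth does not apply to these arrays, and what limits the precision was not tested.

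Of the probe sets, 20760 had 1 gene, 1140 several and 2300 none, by the platform annotation, and the probe set with the highest mean stood for each of 19351 genes. limma 3.58.1 (R 4.3.3) fitted 1 coefficient per stage to all 24 arrays, with eBayes and Benjamini-Hochberg adjustment over all genes at 0.05, tested on simulated data. Tables and figures used Python 3.11.15, pandas 2.3.3 and matplotlib 3.10.9.

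All members are named. Of each pathway list, up to 4 genes past the threshold by largest difference were eligible per comparison, or the 2 brightest where none passed. Apc, Axin1 and Gsk3b were named in addition, for their part in degrading beta-catenin. For likeness, the 5 genes closest to Rspo3 were named in each measure and the 3 closest to each other member brighter than the median gene at its highest stage, leaving out members, unnamed gene models, olfactory and vomeronasal receptors, small RNAs and genes averaging below the lower quartile. The members and lists were chosen with earlier results of these data known. Alternatives covered normalisation, dim-gene filters, variance models, a replicate block and omitted arrays.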

Additional observations from a re-analysis of the deposited data

Results flagged for a closer look

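Over the 27 groups of 8 arrays (9 genes at 3 stages), 4 held a single array far from the others by Dixon's test, where chance marks about 1 in 20 groups. Rspo1 at E11.5 was 9.03 in replicate 3, the highest of its stage. Without that array Rspo1 still fell at E16.5 against E11.5, by a difference of -0.24 (limma adjusted p = 0.0447). Znrf3 at E11.5 was 9.05 in replicate 5, and its E16.5 to E11.5 difference was 0.19 without it, against 0.01 with it. Znrf3 at E12.5 was 6.999 in replicate 4, the lowest of its stage. Rnf43 at E16.5 was 7.55 in replicate 2, and its E16.5 to E11.5 difference was 0.13 without it (limma adjusted p = 0.150), against 0.19 with it.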

How the results depend on the processing

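Over 37 alternative settings no called difference changed sign. Some differences that did not pass did, such as Znrf3 at E16.5 against E11.5 (-0.10 to 0.19 with single arrays left out), Lgr6 at E12.5 against E11.5 (-0.02 to 0.05) and Rspo1 at E16.5 against E12.5 (-0.07 to 0.02). Between E12.5 and E11.5, limma called 75 genes, and 9 with only the stages compared, 43 with the replicate block, 49 after quantile normalisation again, 120 with array weights, 32 without E16.5 replicates 1 to 4 and 34 without replicates 5 to 8. Leaving out single arrays gave 26 (without E12.5 replicate 1) to 151 (without E12.5 replicate 2). The share of these calls that were higher was 85.3%, and 62.7% with arrays centred on the median, 51.6% centred on the 75th percentile, and, among E11.5 arrays left out, 60.6% for replicate 4, 74.1% for replicate 6 and 97.4% for replicate 7. At E16.5 against E12.5 the call total was 5241 genes, and 3479 without E16.5 replicates 1 to 4; the members called were 2, but 0 without the dimmest 50% of genes, a filter that drops Rspo2 and Lgr5 from the test, and 1 without E16.5 replicates 1 to 4. At E16.5 against E11.5 it was 6479 genes, and 4265 without E16.5 replicates 1 to 4; the members called were 2, and 1 without the dimmest 50%, without E16.5 replicates 1 to 4 or without replicates 5 to 8. Single omissions gave 2 to 4 members there, with 4 without E11.5 replicate 8. Apart from the filter, the cause was not tested. Leaving out a set of E16.5 replicates also lowered the number of arrays, and these cannot be told apart.

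The calls of Rspo2, Lgr5 and Rspo1 were kept with each of the 24 arrays left out. Adjusted p reached 0.0110 for Rspo2 and 0.000821 for Lgr5 at E16.5 against E12.5, and 0.0456 for Rspo1 and 0.000305 for Rspo2 at E16.5 against E11.5. Rspo4 passed at E16.5 against E11.5 with arrays centred on the median (adjusted p = 0.0369) and without E11.5 replicate 3 (0.0424). Myc at E12.5 against E11.5 missed the threshold with the replicate block (adjusted p = 0.0689), with arrays centred on the 75th percentile (0.0545) and without E12.5 replicates 2 and 3 together (0.0711). The Rspo3 differences ran from 1.42 to 1.78, from -0.97 to -0.71 and from 0.61 to 0.93 in the 3 comparisons.

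The replicate numbers did not pair the arrays: over 24 same-number pairs, 0 had a correlation of deviations above 0.1 (range -0.281 to 0.0927), and 2 of 24 arrays correlated best with their own number. With the replicate block the members' calls stayed, at adjusted p = 0.0180 for Rspo2 and 0.000389 for Lgr5 at E16.5 against E12.5 and 0.0214 for Rspo1 at E16.5 against E11.5. Signal over background limits Rspo4 and Lgr5, which lie near the lower quartile of genes (6.40 to 6.64 over arrays). Rspo2 at E16.5 (6.60 to 6.97) also lay close to that quartile, with 0 of the 8 arrays below their own.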

Other observations

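Within a stage, pairs of the 9 genes were compared over the 8 arrays, a step added after the values were seen. Of 108 pair and stage combinations tested by a two-sided exact permutation test of Pearson's r, 8 had an unadjusted p under 0.05 and 0 passed Benjamini-Hochberg adjustment (lowest adjusted p = 0.183), and 0 passed by Spearman's rho. The pair with the highest r was Rspo3 and Lgr4 at E16.5, with r = 0.94 (exact p = 0.00221) and rho = 0.83 (exact p = 0.0154). Without the 2 arrays farthest from the Rspo3 median r was 0.92. The same pair had r = -0.05 at E11.5 and -0.03 at E12.5. Rspo2 and Lgr5 at E16.5 had r = 0.89 (exact p = 0.00340) and rho = 0.90 (exact p = 0.00456). Without the 2 arrays farthest from the Rspo2 median r was 0.89, while this pair had r = -0.29 at E11.5 and 0.20 at E12.5. Both genes were dim at E16.5, where Lgr5 lay below the lower quartile of genes in 4 of the 8 arrays. Rspo2 spanned only 6.60 to 6.97 there. At E11.5 Lgr6 and Rnf43 had r = 0.85 (exact p = 0.00660) and rho = 0.95 (exact p = 0.00114, the lowest by rho). Without the 2 arrays farthest from the Lgr6 median their r was 0.98. At E16.5 their r was 0.71 (exact p = 0.0921) and their rho 0.90 (exact p = 0.00456), while at E12.5 their r was -0.51. The 2 sets of 4 arrays within E16.5 are too small for an r of their own. The permutation did not take these sets into account, and their part in the E16.5 values of r was not tested.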
